A study of Mus musculus with 4 samples.

Results

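The transcripts of 8 genes that mark germinal center B cells, *Bcl6*, *Mybl1*, *Mef2b*, *S1pr2*, *Rgs13*, *Gcsam*, *Efnb1* and *Fas*, were followed in unstimulated splenic B cells that lack the POZ domain of the transcription factor MIZ-1. The genes were chosen by name, as known markers of this B cell state and with earlier results of these data known, and all 8 were found among the 41214 genes of the count table. Germinal centers are the structures of the spleen and lymph nodes in which B cells that have met antigen divide, mutate their immunoglobulin genes and compete for help from T cells. BCL6 is the repressor that B cells need to enter and stay in this state. It belongs to the same BTB/POZ family of zinc finger proteins as MIZ-1 and binds MIZ-1 on some target genes. *Bcl6* mRNA is not limited to the germinal center, since resting follicular B cells contain it with little protein, whereas the other genes are mostly low in resting B cells.

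The samples were B220+ cells from the spleen, taken with magnetic beads from young adult mice on a C57BL/6 background. In the 2 samples called MIZ-1DPOZ (genotype Miz-1 deltaPOZ), Mb1-Cre, which is expressed from the *Cd79a* promoter in the B lineage, removed the POZ domain from a floxed *Miz-1* gene (*Zbtb17*). The 2 samples called MIZ-1WT came from wild-type animals, and whether these carried Cre is not given in the sources used here. RNA depleted of ribosomal RNA was sequenced for all 4 samples without stimulation. Whether a sample came from a single spleen is not given in the sources used here. No cell was sorted as a germinal center cell, so each value is an average over all B220+ cells of a sample. A change in the share of germinal center or other B cells and a change in RNA per cell therefore cannot be told apart.

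Between 43026814 and 46387209 read pairs per library were counted on genes. *Zbtb17* itself had 47.1 ± 1.09 CPM (read pairs of a gene scaled to the TMM-normalised library total) in MIZ-1WT and 37.7 ± 0.533 in MIZ-1DPOZ (SD, n = 2 each). A count over the whole gene does not show whether the POZ exons were removed. The libraries differed in sex as well as genotype. *Xist*, the RNA of the inactive X chromosome, stood at 1.28 ± 0.215 CPM in MIZ-1WT and 866 ± 91.2 in MIZ-1DPOZ. The 4 Y-linked genes examined were lower in MIZ-1DPOZ by log2 fold changes of -4.29 to -4.66. Their reads were not absent there, with *Ddx3y* at 359 ± 6.16 CPM in MIZ-1WT and 14.2 ± 0.0816 in MIZ-1DPOZ. The source of these reads was not tested. All 10 pan B cell markers were detected, and 8 of them were lower in MIZ-1DPOZ (median log2 fold change -0.25). All 16 macrophage markers, among them *Csf1r*, were higher (1.67 to 2.54), and their summed level was 956 and 1268 CPM in the MIZ-1WT libraries against 5663 and 3575 in the MIZ-1DPOZ libraries. The 16 proliferation genes were also all higher (0.31 to 2.18), with *Mki67* at 60.1 ± 2.65 CPM in MIZ-1WT and 264 ± 3.98 in MIZ-1DPOZ. Genotype, sex and the share of macrophage RNA thus moved together in these libraries, and their parts in the values below cannot be told apart.

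Promoter windows of 300 bases, from 250 before to 50 after each RefSeq transcription start (GRCm38.p6), were matched to 7 of the 8 genes and searched on both strands for 3 short motifs. *Bcl6* had 2 windows and the others 1 each. The *Mef2b* window lay at an internal start, 13050 bases downstream of the annotated gene start. A BCL6-type site (TTCCTNGAA) was present in 1 of the 8 windows, against 1.59% of all 32851 promoter windows. This was a window at an internal start of *Bcl6* itself, 7569 bases downstream of the annotated gene start, where the site began 168 bases before that start. The MYC-type E-box (CACGTG), a motif bound by MYC, which is a known partner of MIZ-1, was present in 2 of the 8 windows, against 7.15% of all windows. It began 60 bases before the outer *Bcl6* start and 110 bases before the *Fas* start. ATCGAT, a core of the MIZ-1 motif, was in none of the 8 windows and in 0.925% of all windows. The 3 windows with a match are shown because they belong to the gene that fell and to 1 gene that rose. They are written 5′ to 3′ on the strand of the gene, with the BCL6-type site in capitals in the first and the E-box in capitals in the other two. Motif matches in a window are a description and do not show binding.
*Bcl6* internal start, chr16:23981234-23981533, minus strand: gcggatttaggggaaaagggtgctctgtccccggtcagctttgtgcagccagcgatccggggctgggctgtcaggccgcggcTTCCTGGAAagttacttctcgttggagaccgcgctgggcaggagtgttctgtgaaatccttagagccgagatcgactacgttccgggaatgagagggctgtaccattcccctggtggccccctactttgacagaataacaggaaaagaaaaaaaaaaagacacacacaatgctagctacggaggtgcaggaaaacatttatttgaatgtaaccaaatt
*Bcl6* outer start, chr16:23988803-23989102, minus strand: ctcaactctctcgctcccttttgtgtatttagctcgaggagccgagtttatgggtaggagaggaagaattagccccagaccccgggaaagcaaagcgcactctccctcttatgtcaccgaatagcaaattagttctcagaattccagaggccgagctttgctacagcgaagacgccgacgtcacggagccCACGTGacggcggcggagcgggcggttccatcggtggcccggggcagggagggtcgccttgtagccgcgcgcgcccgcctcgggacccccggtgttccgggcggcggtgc
*Fas*, chr19:34290409-34290708, plus strand: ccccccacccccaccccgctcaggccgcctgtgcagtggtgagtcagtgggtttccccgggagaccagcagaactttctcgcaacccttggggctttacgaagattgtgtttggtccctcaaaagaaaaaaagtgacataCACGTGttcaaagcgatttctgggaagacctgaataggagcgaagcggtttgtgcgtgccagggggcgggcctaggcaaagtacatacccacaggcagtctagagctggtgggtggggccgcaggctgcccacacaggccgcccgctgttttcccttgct

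Of the 8 germinal center genes, 7 were higher in MIZ-1DPOZ and 1, *Bcl6*, was lower. All 8 passed the filter on low counts, with at least 10 read pairs in each of the 4 libraries. The values of the genotypes did not overlap for any of them, but this says little with 2 libraries per genotype. They did not overlap either for *Cxcr5* and *Fasl*, which were not called, and the share over all tested genes was not counted. A difference was called at an adjusted p under 0.05 in the edgeR quasi-likelihood test, Benjamini-Hochberg adjusted over all 14554 genes tested. By this rule 40.0% of all tested genes were called, 21.1% higher and 18.9% lower, so that a call alone was common, and the sizes of the differences are the more informative values. The median log2 fold change of all tested genes was -0.01, and the middle 50% of them lay between -0.23 and 0.33, while the 8 genes ranged from -1.36 to 2.64. With 2 libraries per genotype, called biological duplicates in the labels, the p-values measure the spread between these libraries only. The summed level of the 7 genes other than *Bcl6* was 40.7 and 54.4 CPM in the MIZ-1WT libraries and 208 and 169 CPM in the MIZ-1DPOZ libraries.

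**Figure D1:**
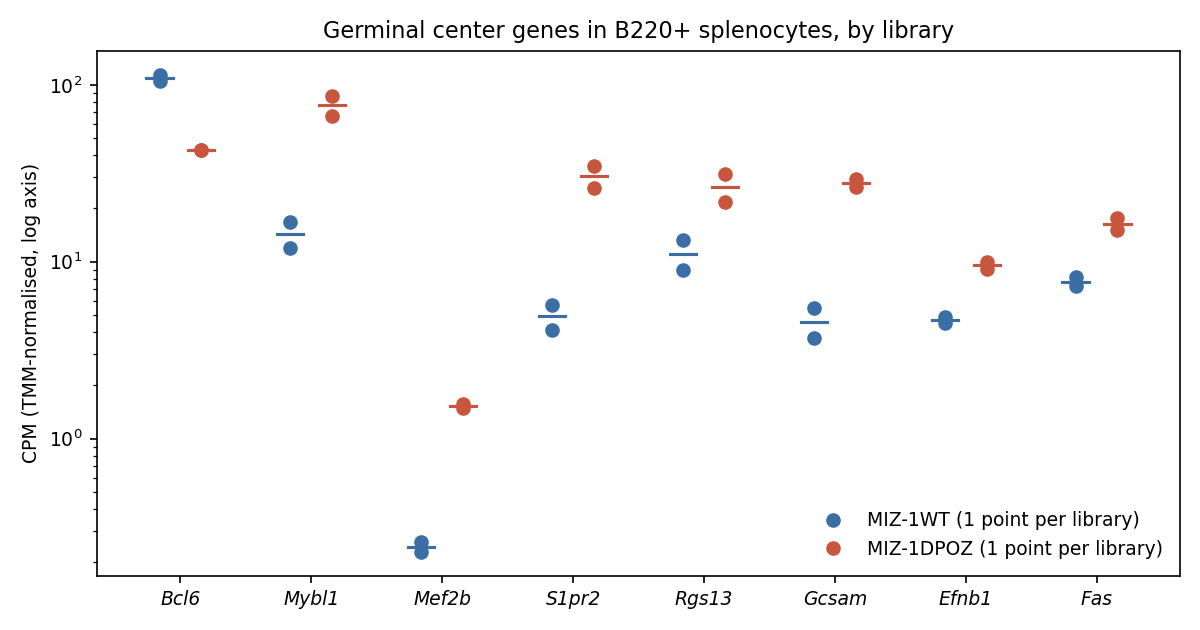
Level of each germinal center gene in every library, as CPM on a log axis, with 1 point per library (n = 2 per genotype) and a bar at the mean. *Bcl6* is the only one of the 8 genes with lower points in MIZ-1DPOZ (42.7 and 43.0 CPM against 114 and 105).

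The transcription factors of the group moved in opposite directions. *Bcl6* (ENSMUSG00000022508, chr16:23965052-23988852, minus strand, GRCm38) encodes the repressor described above. It was counted at 4983 and 4421 read pairs in the MIZ-1WT libraries and at 2031 and 1887 in the MIZ-1DPOZ libraries, or 114, 105, 42.7 and 43.0 CPM. The MIZ-1DPOZ libraries were nearly equal and both far below the MIZ-1WT libraries. The means were 109.7 ± 6.40 and 42.8 ± 0.227 CPM (SD, n = 2 each), a log2 fold change of -1.36 ± 0.06 (SE; edgeR quasi-likelihood, adjusted p = 0.000682). Of all 14554 tested genes, 129 had a log2 fold change as low as or lower than that of *Bcl6*, and it ranked 16 by p-value.

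*Mybl1* (ENSMUSG00000025912, chr1:9667415-9700209, minus strand) encodes A-MYB, a MYB family activator that among B cells is expressed mostly in dividing germinal center cells. It was counted at 523 and 703 read pairs in MIZ-1WT and at 4114 and 2916 in MIZ-1DPOZ, with mean levels of 14.4 ± 3.35 and 76.4 ± 14.1 CPM (SD, n = 2 each). Both MIZ-1DPOZ libraries were higher than both MIZ-1WT libraries, although replicates of a genotype differed more than for *Bcl6*. The log2 fold change was 2.41 ± 0.19 (SE; edgeR quasi-likelihood, adjusted p = 0.00119), or 5.33-fold higher, and 147 genes had one at least as high.

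*Mef2b* (ENSMUSG00000079033, chr8:70139711-70167488, plus strand) encodes a MADS-box factor that activates *Bcl6* in germinal center B cells. It was the least counted of the 8 genes, with 10 and 11 read pairs in MIZ-1WT and 71 and 69 in MIZ-1DPOZ, or 0.229, 0.262, 1.49 and 1.57 CPM. Replicates lay close together and the genotypes well apart, with a log2 fold change of 2.63 ± 0.28 (SE; edgeR quasi-likelihood, adjusted p = 0.00210). The gene shares 62 exon bases with *Borcs8* on the same strand. *Borcs8* was much higher, at 21.3 to 23.0 CPM in the 4 libraries, and had a log2 fold change of 0.03, so its level did not move with that of *Mef2b*. Among the 3 factors, then, *Bcl6* was lower in the libraries in which *Mef2b* and *Mybl1* were higher.

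**Figure D2:**
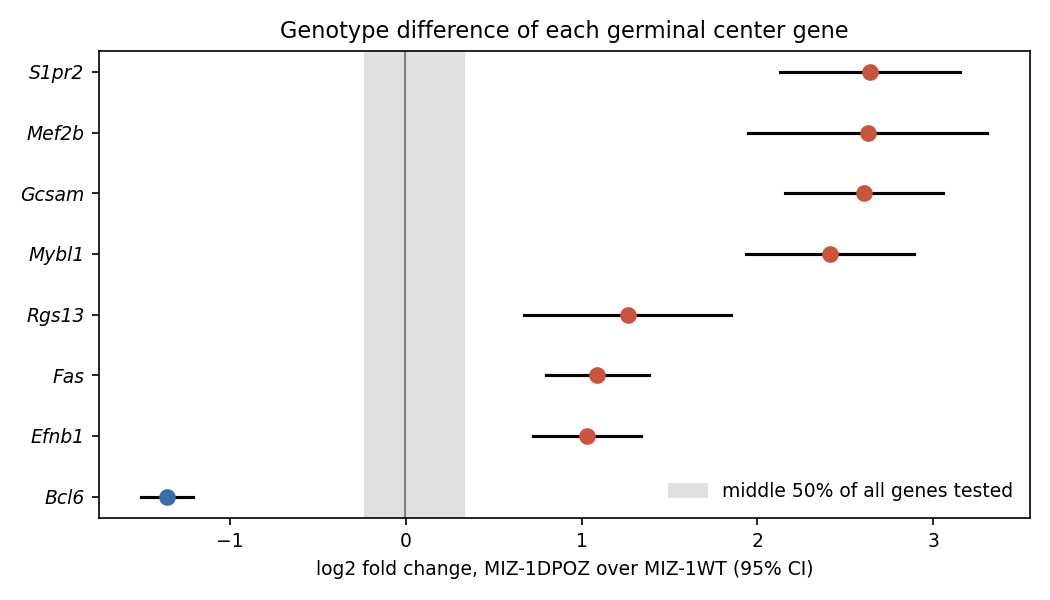
Log2 fold change of each germinal center gene, MIZ-1DPOZ over MIZ-1WT, with its 95% confidence interval from the edgeR fit. The grey band holds the middle 50% of all tested genes (-0.23 to 0.33) and the grey line is their median. *Bcl6* (-1.36) lies to the left of the band, and the other 7 genes lie to its right, between 1.03 for *Efnb1* and 2.64 for *S1pr2*.

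The next 4 genes act on where germinal center B cells go and which cells they contact, and all were higher in MIZ-1DPOZ. *S1pr2* (ENSMUSG00000043895, chr9:20962361-20976781, minus strand) encodes the sphingosine 1-phosphate receptor that, through Galpha13, restrains migration and holds B cells at the center of the follicle. It stood at 4.10 and 5.71 CPM in MIZ-1WT and at 34.9 and 26.2 CPM in MIZ-1DPOZ. The lower MIZ-1DPOZ library was still several times above the higher MIZ-1WT library. The log2 fold change of 2.64 ± 0.21 (SE; edgeR quasi-likelihood, adjusted p = 0.00115) was the highest of the 8 and corresponds to 6.24-fold.

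*Gcsam* (ENSMUSG00000022659, chr16:45610380-45622867, plus strand) encodes a germinal center signaling adaptor that dampens B cell motility. It was measured at 3.69 and 5.45 CPM in MIZ-1WT and at 26.5 and 29.2 CPM in MIZ-1DPOZ. Here the second library of each genotype was the higher one, unlike *S1pr2*, for which the first MIZ-1DPOZ library was the higher. The log2 fold change was 2.61 ± 0.18 (SE; edgeR quasi-likelihood, adjusted p = 0.000924), or 6.10-fold.

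*Rgs13* (ENSMUSG00000051079, chr1:144138654-144177372, minus strand) encodes a regulator of G protein signaling that limits chemokine responses in germinal center B cells. Its levels were 8.94 and 13.2 CPM in MIZ-1WT and 31.3 and 21.8 CPM in MIZ-1DPOZ. The genotypes did not overlap, but replicates were farther apart relative to the difference than for the other 7 genes. The log2 fold change was 1.26 ± 0.24 (SE; edgeR quasi-likelihood, adjusted p = 0.0109), with the widest range when single libraries were left out. Without MIZ-1WT replicate 1 it was 1.01 and no longer called (adjusted p = 0.0575), the only one of the 8 genes for which leaving out a library ended the call.

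*Efnb1* (ENSMUSG00000031217, chrX:99136130-99148991, plus strand) encodes ephrin B1, a membrane ligand of EPHB receptors that germinal center B cells display towards follicular helper T cells. It was counted at 196 and 204 read pairs in MIZ-1WT and at 476 and 399 in MIZ-1DPOZ. The mean levels were 4.67 ± 0.255 and 9.55 ± 0.644 CPM, a 2.04-fold difference with little spread between replicates. The log2 fold change was 1.03 ± 0.12 (SE; edgeR quasi-likelihood, adjusted p = 0.00297), the smallest of the 7 increases. *Efnb1* is the only X-linked gene of the 8, and the libraries differed in sex. Of 479 X-linked genes tested, 70 (14.6%) were higher and 81 were lower, with a median log2 fold change of -0.02. The parts of sex and genotype in the *Efnb1* value cannot be told apart.

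*Fas* (ENSMUSG00000024778, chr19:34290666-34327772, plus strand) encodes the death receptor CD95, which is displayed by germinal center and other activated B cells. It was at 7.27 and 8.16 CPM in MIZ-1WT and at 17.6 and 15.2 CPM in MIZ-1DPOZ. Its log2 fold change of 1.09 ± 0.12 (SE; edgeR quasi-likelihood, adjusted p = 0.00232), or 2.13-fold, was close to that of *Efnb1*. The 7 increases thus fell into 4 of 5.33-fold to 6.24-fold (*Mybl1*, *Gcsam*, *Mef2b* and *S1pr2*) and 3 of 2.04-fold to 2.40-fold (*Efnb1*, *Fas* and *Rgs13*).

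Per kilobase of annotated exon, the order of the 8 genes changed between the genotypes. In MIZ-1WT, *Bcl6* was the highest at 16.4 ± 0.955 CPM per kb (SD, n = 2), followed by *Rgs13* at 6.69 ± 1.82, *Fas* at 3.74 ± 0.307 and *Mybl1* at 2.66 ± 0.620. Below these were *Efnb1* at 1.35 ± 0.0739 and *Gcsam* at 1.33 ± 0.363, whose values overlapped, then *S1pr2* at 0.616 ± 0.143 and *Mef2b* at 0.175 ± 0.0164 CPM per kb. Only the *Efnb1* and *Gcsam* values overlapped among neighbours in this order. In MIZ-1DPOZ, *Rgs13* at 16.03 ± 4.06 and *Mybl1* at 14.2 ± 2.62 CPM per kb overlapped at the top, followed by *Gcsam* at 8.13 ± 0.552 and *Fas* at 7.96 ± 0.849, which also overlapped. *Bcl6* came only after these, at 6.39 ± 0.0339, and before *S1pr2* at 3.84 ± 0.775, *Efnb1* at 2.77 ± 0.186 and *Mef2b* at 1.09 ± 0.0405 CPM per kb. *Bcl6* was therefore the most abundant of the 8 mRNAs per length in MIZ-1WT and the fifth in MIZ-1DPOZ, while *Mef2b* was the least abundant in both.

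The differences between replicates of a genotype were compared with those of the marker lists. On the log2 CPM scale, MIZ-1WT replicate 1 was below replicate 2 for 7 of the 8 genes, by up to -0.56 for *Rgs13* and *Gcsam*, and above it by 0.12 for *Bcl6*. In MIZ-1DPOZ, replicate 1 was above replicate 2 for *Mybl1* (0.38), *S1pr2* (0.41), *Rgs13* (0.52), *Efnb1* (0.14) and *Fas* (0.22), and below it for *Bcl6* (-0.01), *Mef2b* (-0.07) and *Gcsam* (-0.14). The median macrophage marker differed by -0.38 between the MIZ-1WT replicates and by 0.67 between the MIZ-1DPOZ replicates, so it moved the same way as those 5 genes in both genotypes. In MIZ-1DPOZ, *Gcsam* differed in the other direction, while *Bcl6* and *Mef2b* (71 and 69 read pairs) hardly differed between replicates. Each comparison rests on 1 pair of libraries per genotype. For proliferation genes these differences were 0.03 and 0.22, for pan B cell markers 0.02 and -0.09, and for T cell markers 0.47 and -0.22. The part of macrophage RNA in the values of the 8 genes was not tested.

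**Figure D3:**
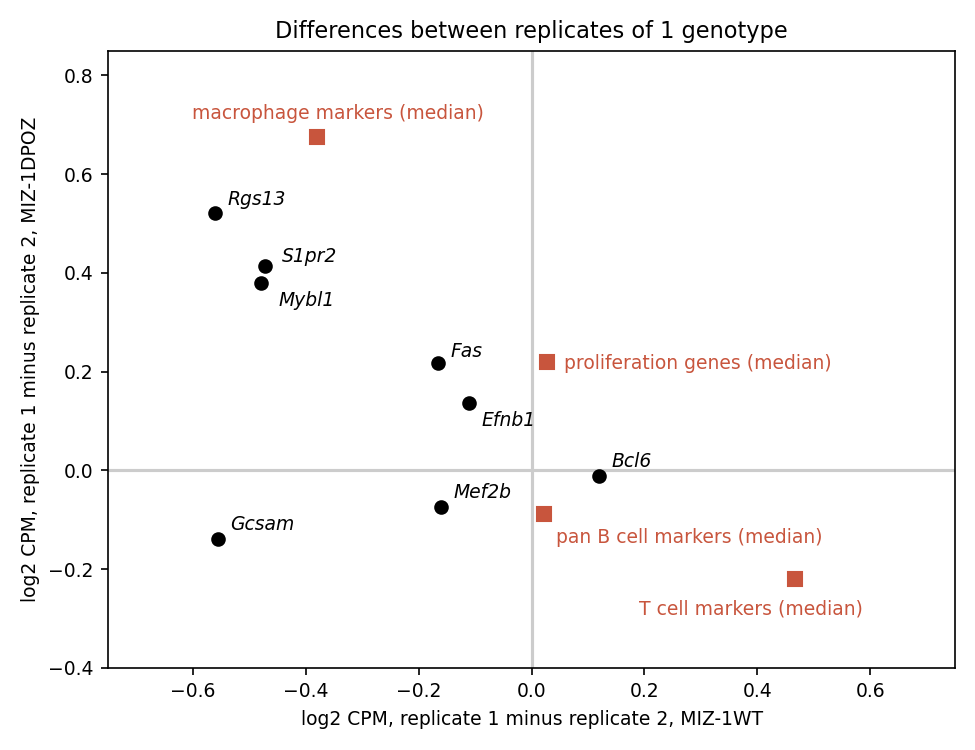
Difference in log2 CPM between replicate 1 and replicate 2, in MIZ-1WT (horizontal axis) and in MIZ-1DPOZ (vertical axis), for each germinal center gene (black circles) and as the median of 4 marker lists (red squares). *Rgs13*, *S1pr2* and *Mybl1* lie nearest to the macrophage markers (-0.38 and 0.67), and *Bcl6* is the only gene to the right of 0 (0.12).

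Further genes of the germinal center program were described from a separate list of 15, of which 14 were tested (*Serpina9* was below the filter). There 7 were higher, 3 were lower and 4 were not called, with a median log2 fold change of 0.49 beside -0.01 over all genes. *Nuggc*, a germinal center GTPase gene, rose from 5.96 ± 0.751 CPM in MIZ-1WT to 37.8 ± 10.4 in MIZ-1DPOZ (SD, n = 2 each), *Basp1* from 4.51 ± 0.350 to 20.5 ± 4.73 and *Plxnb2* from 24.1 ± 3.51 to 70.8 ± 5.62. *Lmo2* (-0.61), *Stap1* (-0.59) and *Il21r*, the receptor of a follicular helper T cell cytokine (-0.38), were lower and were named after their values were seen. Thus *Bcl6* was not alone among genes of this program in being lower, although its log2 fold change of -1.36 was below that of each of these 3.

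The factors and cofactors around BCL6 showed mostly small decreases. Of 16 other transcription factors of the germinal center program, 10 were lower, 3 were higher and 3 were not called (median -0.33). *Id3*, an inhibitor of E proteins, fell from 105.9 ± 6.17 to 56.2 ± 2.65 CPM (log2 fold change -0.91), *Ebf1* by 0.48 and *Mef2c*, the more abundant relative of *Mef2b*, by 0.46 on the log2 scale. *Pou2af1*, a B cell coactivator needed for germinal centers, rose from 503 ± 20.4 to 739 ± 14.2 CPM. Of 8 genes for BCL6 corepressors and partners, 5 were lower, none was higher and 3 were not called (median -0.28), the lower ones including *Zbtb17* (-0.32), *Ncor1* (-0.30), *Bcor* (-0.29) and *Gps2* (-0.28).

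Of 18 genes known as repressed by BCL6, 9 were higher, 1 was lower and 8 were not called, with a median log2 fold change of 0.29. *Prdm1*, which encodes the plasma cell factor BLIMP-1, rose from 6.53 ± 0.419 to 17.2 ± 0.252 CPM (log2 fold change 1.40). *Id2* rose by 1.32, *Cd44* by 0.69 and *Chek1*, a checkpoint kinase gene also used by dividing cells, by 1.40 on the log2 scale. *Gpr183*, the oxysterol receptor that draws B cells to the outer follicle, was the 1 lower gene (-0.43). It also belongs to a list of 8 genes lowered when B cells enter the germinal center, of which 4 were lower, 1 was higher and 3 were not called (median -0.33). In that list *Klf2* (-0.92) and *Ccr7* (-0.51) were lower and *Bcl2*, a survival gene, was higher (0.32).

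**Figure D4:**
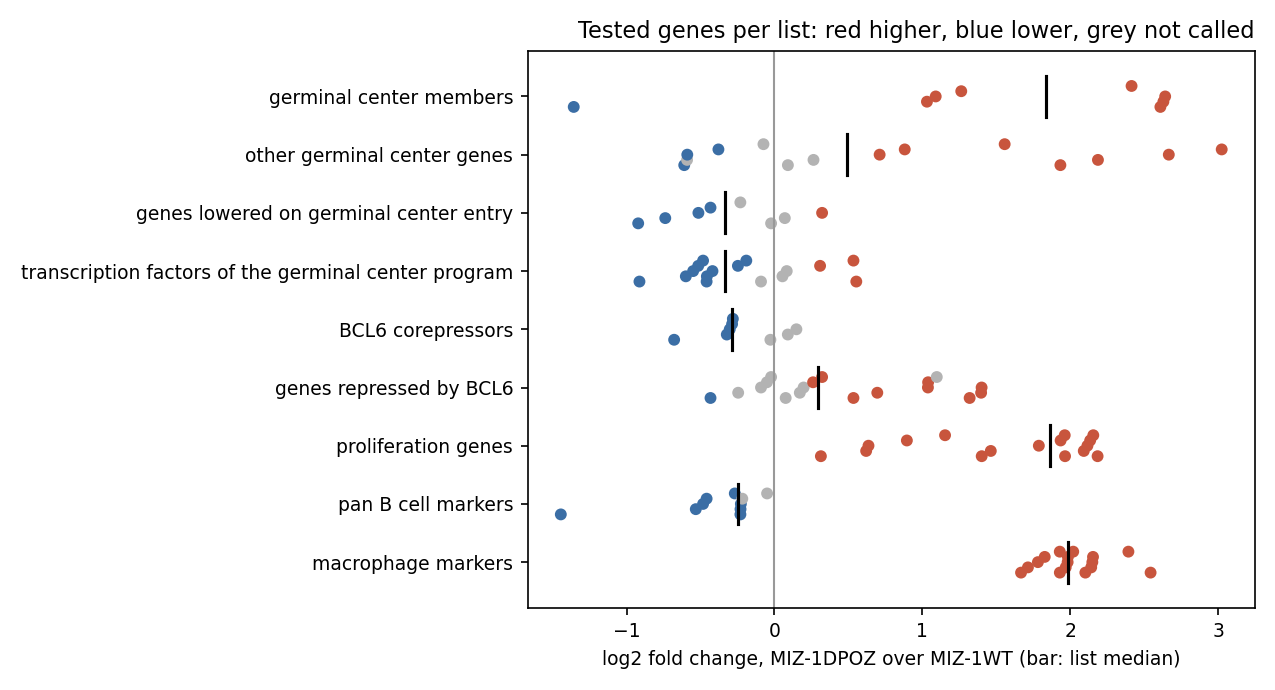
Log2 fold change, MIZ-1DPOZ over MIZ-1WT, of each tested gene of 9 lists, with red for genes called higher, blue for genes called lower, grey for genes not called, and a black bar at the list median. The medians run from -0.33 for germinal center transcription factors and genes lowered on germinal center entry to 1.98 for macrophage markers, and the grey line is the median of all tested genes (-0.01).

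Genes that act with the migration genes and with *Fas* were called in both directions, beside 21.1% higher and 18.9% lower among all tested genes. In a list of 16 genes for Galpha13 signaling and chemoattractant receptors, 2 were higher, 6 were lower and 8 were not called (median -0.17). The 2 higher genes were named after their values were seen. *Rgs1*, a regulator of G protein signaling of the same family as *Rgs13*, had a log2 fold change of 2.34, the largest in the list. Its MIZ-1DPOZ replicates lay far apart, at 191 and 96.9 CPM, against 25.2 and 31.6 CPM in MIZ-1WT. The other higher gene was *S1pr3* (0.76). *Gna13*, which couples S1PR2 to its effectors, was at 288 ± 1.55 and 263 ± 4.80 CPM (log2 fold change -0.13, edgeR quasi-likelihood adjusted p = 0.0586), and *Arhgef1*, the next member of that pathway, at 221 ± 2.21 and 193 ± 23.8 CPM (-0.19, edgeR adjusted p = 0.121). *S1pr4*, another receptor of the same lipid, fell from 157 ± 5.83 to 84.9 ± 4.46 CPM, opposite to *S1pr2*. Among ephrin B ligands and their receptors other than *Efnb1*, 4 of 7 were tested. *Ephb6* rose from 0.863 ± 0.0434 to 1.86 ± 0.435 CPM and *Efnb2* fell from 1.04 ± 0.143 to 0.399 ± 0.208 CPM, both low levels, while *Ephb1* had no reads in any library. Of 10 further genes of the FAS death pathway 2 were higher (among them *Bid*), 2 were lower (*Faim* and *Faim3*) and 6 were not called, with a median of 0.00. *Fasl*, the ligand, was at 1.48 ± 0.0225 CPM in MIZ-1WT and 1.69 ± 0.166 in MIZ-1DPOZ (edgeR adjusted p = 0.496).

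The genes whose pattern over the 4 libraries was nearest to that of *Bcl6* were looked for among 190 genes of the lists, by the Euclidean distance between log2 CPM values centred on each gene's mean. They were *Cd79a* at a distance of 0.291, *Id3* at 0.478 and *S1pr4* at 0.490, all lower in MIZ-1DPOZ. *Cd79a*, which encodes a chain of the B cell receptor complex, stood at 336 and 311 CPM in MIZ-1WT and at 103 and 135 CPM in MIZ-1DPOZ. It is also the gene whose promoter drives Mb1-Cre, and the parts of the Cre allele and of MIZ-1 in its level cannot be told apart. With 4 libraries in 2 groups, this likeness rests mostly on the difference between the genotypes.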

How the data were processed

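Splenic B220+ cells of 2 MIZ-1WT and 2 MIZ-1DPOZ samples were profiled by RNA-seq. The values are raw counts per gene, deposited by the authors, who trimmed the reads with Trimmomatic, aligned them to mm10 with TopHat2 (version 2.1.0 in the submitters' processing notes) and counted with HTSeq. The strand setting and annotation release are not given in the sources used here. Reads that matched several places were left out by HTSeq, which lowers genes with near-identical copies. Gene symbols, positions and exon lengths came from GENCODE M21, and 40340 of 41214 identifiers matched. Rows without a gene (no feature, ambiguous, not unique) were left out. The rows for no feature were 21.1% to 27.2% and for ambiguous reads 0.281% to 0.302% of the table sums, and those for reads not unique 42.8% to 44.2%.

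Counts were tested with edgeR 4.0.16 (R 4.3.3, limma 3.58.1; TMM, quasi-likelihood, both directions, Benjamini-Hochberg over all tested genes), after a filter that required 10 or more counts in 2 or more of the libraries. CPM are TMM-normalised, log2 CPM have a prior count of 2, standard errors and intervals were recovered from the F statistic, and exon length is the union of annotated exons. In simulated data of the same layout (14354 genes), this recovered 88.4% of 95 genes changed by log2 1 and 99.0% of 98 changed by log2 2, with 10 false calls. The simulation gave all genes a common dispersion and changed far fewer genes than were called here. Its rates may therefore not hold for these data. Replicates differed by more than sampling noise (chi-square per degree of freedom 9.79 in MIZ-1WT and 21.9 in MIZ-1DPOZ). The alternatives were DESeq2 1.42.0 (size factors, Wald test), other filters, a replicate block, removal of immunoglobulin segments and leaving out each library. The genes described and all lists were chosen with earlier results of these data known. Named list genes are the 4 with the smallest p per list among those called, the direct partners of the 8 genes, and those said to be named later; some genes that this rule names are not reported here.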

Additional observations from a re-analysis of the deposited data

How the results depend on the processing

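*Bcl6* was lower in every alternative tried, with log2 fold changes of -1.37 to -1.34 and, with 1 library left out, -1.42 to -1.30. All 7 other genes stayed higher in direction wherever they were tested, and their calls held apart from *Rgs13* without MIZ-1WT replicate 1 (1.01, edgeR quasi-likelihood adjusted p = 0.0575; 0.98 to 1.57 over the 4 fits that leave out a library) and *Mef2b*, which a minimum mean of 1 CPM removed before testing. Leaving out a library moved the number of genes called over the whole table from 3076 higher and 2746 lower to between 1367 and 3017 higher and between 837 and 2722 lower. The lowest numbers came without MIZ-1WT replicate 1 (1367 and 837), followed by MIZ-1WT replicate 2 (1721 and 1104); such fits take the spread of the lone library from the other genotype. With a replicate block, 2633 genes were higher and 2099 lower, and all 8 germinal center genes kept their calls. The labels give no shared litter or day behind the numbers, and same-numbered libraries deviated against each other (r = -0.159 over 8890 genes). A block that crossed the numbers, added after the data were seen, gave 3353 and 3135. With 2 libraries per genotype and about 10 counts per library in MIZ-1WT, the precision of the *Mef2b* level is limited by depth as well as by replicates.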

Other observations

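Other B cell states were also examined in the same libraries. All 8 marginal zone B cell markers were higher in MIZ-1DPOZ (median log2 fold change 0.66), with *Cd9* at 19.0 ± 2.70 CPM in MIZ-1WT and 44.4 ± 0.613 in MIZ-1DPOZ (SD, n = 2 each) and *Dtx1*, a regulator of Notch signaling, at 262 ± 16.2 and 410.5 ± 15.2. Of 5 follicular B cell markers tested, 3 were lower and 2 were not called (median -0.51), with *Fcer2a*, which encodes CD23, at 242 ± 6.59 CPM in MIZ-1WT and 145 ± 31.7 in MIZ-1DPOZ. Of 8 plasma cell markers, 6 were higher and 2 were not called (median 0.99). *Tnfrsf17*, the receptor BCMA of plasma cells, stood at 0.679 ± 0.117 CPM in MIZ-1WT and 3.94 ± 0.164 in MIZ-1DPOZ, and *Xbp1*, a factor of the secretory program, at 172 ± 12.4 and 251 ± 13.5.

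Markers of other cell types of the spleen were also counted. Of 12 T cell markers, 2 were higher, *Cd28* and *Cd4*, and 10 were not called (median 0.12). Of 7 follicular helper T cell markers 6 were tested, 2 of them higher (*Icos* and *Tox2*), 1 lower (*Cd200*) and 3 not called, and *Il21*, the cytokine of these cells, was below the filter. Of 8 follicular dendritic cell and stroma markers 2 were tested, with *Mfge8* lower (8.24 ± 0.365 against 5.10 ± 0.311 CPM) and the other not called. Of 8 mast cell and basophil markers 3 were tested and none was called by edgeR, and *Mcpt8* had no reads in any library. Of 8 endothelial markers 5 were tested, 2 higher (*Stab2* and *Eng*) and 1 lower (*Pecam1*), with *Emcn* at 0 reads in all 4 libraries. Of 8 plasmacytoid dendritic cell markers 1 was higher and 1 lower, and of 5 neutrophil markers tested 1 was higher.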
